A study of Mus musculus with 8 samples.

Results

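The NRF2 antioxidant response was followed in mouse liver through 9 genes: the transcription factor gene Nfe2l2 (which encodes NRF2), its inhibitor Keap1, and the target genes Nqo1, Gclc, Gclm, Txnrd1, Srxn1, Slc7a11 and Prdx1. They were matched by symbol among the 48323 gene symbols of the deposited table with an estimate in every library. RNA-seq was made from livers of C57BL/6 mice, all wild type, kept for 30 weeks in 1 of 4 conditions with 2 libraries each: constant light with fine particulate matter (LL-PM2.5), constant light with filtered air (LL-FA), a light/dark cycle with PM2.5 (LD-PM2.5), and a light/dark cycle with filtered air (LD-FA). The design asks what PM2.5, airborne particles small enough to reach the deep lung, does to the liver under either light regime, and what constant light, which disturbs the daily clock, does in either air. Genotype and strain were shared by all 4 groups. No label used here gives sex, age or the hour at which livers were taken. The labels do not say whether 2 libraries of a group are 2 mice, and the p-values then cover only the variation from library to library, which may be technical.

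NRF2 is a transcription factor that KEAP1, an adaptor of a ubiquitin ligase, marks for degradation in unstressed cells. Electrophiles and oxidants modify cysteines of KEAP1, NRF2 then accumulates with little need for new Nfe2l2 RNA, pairs with a small MAF protein and binds antioxidant response elements beside genes of glutathione supply, thioredoxin recycling, quinone reduction and NADPH supply. In liver this programme guards hepatocytes that process drugs and xenobiotics, and the RNA of its targets is a common readout of it.

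Libraries held 22085740 to 31696337 fragments assigned to genes. The hepatocyte markers marked the tissue as liver in all 8 libraries, with a summed level of 11100 to 13700 FPKM (fragments scaled to transcript length and library size) over 7 measured genes, and Ttr, a plasma carrier protein made by hepatocytes, at 4900 FPKM or more. A few libraries stood apart by transcripts of other tissues. Pancreas transcripts (7 markers) reached a sum of 282 FPKM in LL-PM2.5 replicate 2. The sum was 101 FPKM in LD-PM2.5 replicate 1, 2780 FPKM in LD-FA replicate 1 and at most 34.7 FPKM in the other 5 libraries. The 6 skeletal muscle markers summed to 510 FPKM in LL-FA replicate 1 and 269 in LD-FA replicate 1, against 30.8 or less elsewhere, and the 5 adipocyte markers to 86.7 in LL-FA replicate 1, against 12.8 to 18.9 elsewhere. The 6 macrophage markers lay between 73.4 and 105 FPKM in all 8. In bulk liver, fewer cells of a type and less RNA per cell cannot be told apart. No replicate pair lay within sampling noise (chi-square of 41.3 to 88 per degree of freedom), and each library was counted as 1 sample.

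Promoters of 8 of the 9 genes, from 250 bases before to 50 after a transcription start, were found in RefSeq's annotation (GRCm38.p6, the same assembly as the mm10 build named in the submitters' processing notes). The core of the antioxidant response element, TGACNNNGC on either strand, occurred in the promoters of 5 of the 8 (Nfe2l2, Gclm, Txnrd1, Prdx1 and Srxn1) when each gene is counted once. Counted by promoter, as Txnrd1 has several listed starts, 5 of 10 held it, against 12.4% of all 32851 promoters of that length in the table. A match describes the letters only, and an absence says only that they are not in this window. For Nfe2l2 the bases after the listed start were not found in a transcript of the gene in the GENCODE annotation. The match of Srxn1 begins at base 28, after its start. In counts scaled to library size, 4 members were lowest in LL-PM2.5 replicate 2: Gclc, Gclm, Txnrd1 and Keap1. The promoter of Keap1 held no match, and none was listed for Gclc. Whether a match goes with low values there was not tested. The promoters of Gclm (chr3:122245307-122245606, + strand) and Txnrd1 (chr10:82858956-82859255, + strand, the one of its 3 listed starts with a match) are shown as those of the 4 with a match, and that of Nqo1 (chr8:107403156-107403455, - strand) because Nqo1 varied most. Each runs 5′ to 3′ along its gene, and capitals mark the core, which lies on the opposite strand and begins at base -134 from the start of Gclm and base -92 from that of Txnrd1.
Gclm: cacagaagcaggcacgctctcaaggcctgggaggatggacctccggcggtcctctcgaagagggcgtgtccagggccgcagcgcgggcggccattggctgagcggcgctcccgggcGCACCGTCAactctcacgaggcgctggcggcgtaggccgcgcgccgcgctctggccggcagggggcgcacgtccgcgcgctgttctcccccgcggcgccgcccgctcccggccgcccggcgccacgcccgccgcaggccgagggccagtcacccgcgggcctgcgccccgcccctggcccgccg
Txnrd1: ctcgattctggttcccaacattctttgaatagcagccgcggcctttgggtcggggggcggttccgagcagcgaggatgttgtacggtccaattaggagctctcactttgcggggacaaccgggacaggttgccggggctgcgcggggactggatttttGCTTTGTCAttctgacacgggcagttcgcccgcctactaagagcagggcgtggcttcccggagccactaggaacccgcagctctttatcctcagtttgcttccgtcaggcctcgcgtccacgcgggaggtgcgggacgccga
Nqo1: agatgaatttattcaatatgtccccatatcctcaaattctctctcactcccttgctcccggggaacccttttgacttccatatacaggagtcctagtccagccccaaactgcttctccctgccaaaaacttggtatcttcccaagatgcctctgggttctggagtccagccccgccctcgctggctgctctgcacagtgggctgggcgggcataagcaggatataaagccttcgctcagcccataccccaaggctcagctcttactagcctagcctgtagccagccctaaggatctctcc
The matching stretch reads GCACCGTCA in Gclm, GCTTTGTCA in Txnrd1 and GCTGAGTCA in Prdx1.

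The 9 genes covered a wide range of levels. Averaged over the 8 libraries, Prdx1, a thioredoxin-dependent peroxidase, was the most abundant at 686 FPKM. Gclm at 88.6 and Gclc at 80.8 FPKM, which encode the modifier and catalytic subunits of glutamate-cysteine ligase, came next and overlapped each other. Txnrd1, the cytosolic thioredoxin reductase, stood at 41.4 FPKM. Nfe2l2 at 23.1, Keap1 at 20.4 and Srxn1 at 16.9 FPKM followed, with overlapping ranges between Nfe2l2 and Keap1 and between Keap1 and Srxn1. Nqo1, the quinone reductase often used to read NRF2 activity, averaged 5.03 FPKM. Slc7a11, the cystine carrier that feeds glutathione synthesis in many cultured cells, had 9 fragments in all 8 libraries together and at most 3 in any, with 0 in 3 of them. A count of 3 fragments, the limit that a count of 0 allows, corresponds to 0.0946 to 0.136 CPM (counts scaled to library size, here without TMM) in these libraries, for counting error only, so Slc7a11 was at the edge of detection in every group and was not tested. The other 8 had at least 1 FPKM in at least 2 libraries and entered the test among 11316 genes.

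**Figure D1:**
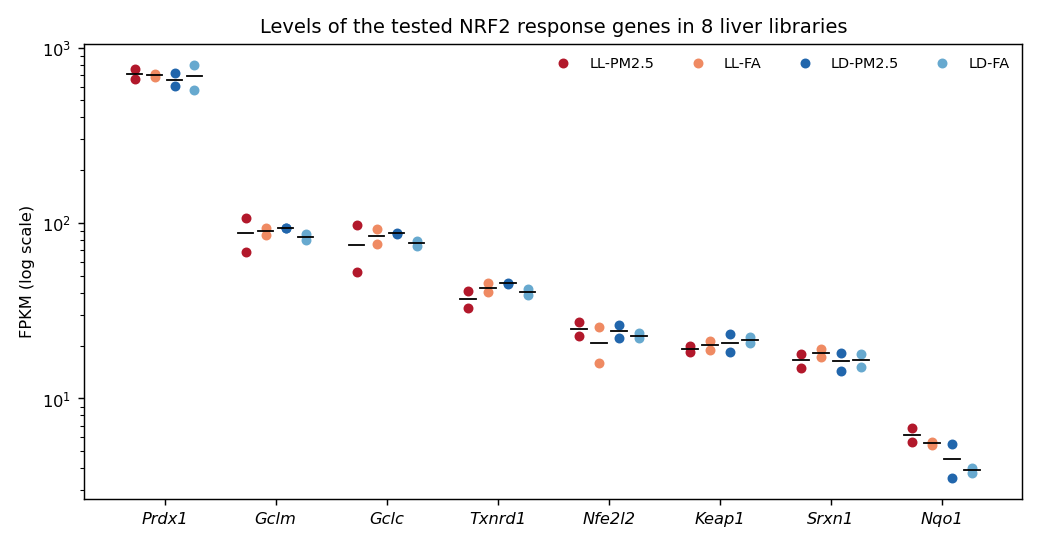
FPKM on a log scale of the 8 tested genes in each library (points, 2 per group) with the group mean (bar). Groups of 1 gene lie close together beside the distance between genes, which runs from 686 FPKM for Prdx1 to 5.03 FPKM for Nqo1.

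No member was called in any of the 7 comparisons by edgeR's quasi-likelihood test at an adjusted p of 0.05, nor by DESeq2 or limma. The smallest adjusted p of a member under any of the 15 alternatives was 0.209, for Nqo1. Calls were rare over all genes as well: 0.0177% of the 11316 genes passed for PM2.5 averaged over light, and 0% in each of the other 6 comparisons. That background depends on the tool: DESeq2 called 33 to 161 genes per comparison, and edgeR 201 to 696 with no filter on low values, none of them a member. Most of the calls without the filter were genes that pass it, as 472 of 696 did for PM2.5 averaged over light. At an unadjusted p under 0.05, Nqo1 was higher in constant light averaged over air, where 2.18% of all genes were higher and 3.48% lower, and no member passed in another comparison. Among all genes the shares higher and lower by that rule were 6.78% and 4.18% in LD-PM2.5 over LD-FA, and 2.12% and 2.71% in LL-PM2.5 over LL-FA. They were 1.19% and 1.55% in LL-FA over LD-FA, and 3.54% and 5.68% in LL-PM2.5 over LD-PM2.5. For PM2.5 averaged over light they were 5.54% and 4.5%, and for the interaction 1.97% and 2.91%. The members' lack of calls is close to this background. Positive log2 fold changes were found for 4 of 8 members in LD-PM2.5 over LD-FA (48.4% of all genes), 3 in LL-PM2.5 over LL-FA (50.7%), 5 in LL-FA over LD-FA (50.1%), 5 in LL-PM2.5 over LD-PM2.5 (51.1%) and 3 in the interaction (50.4%). Averaged over light, the log2 fold changes for PM2.5 ran from -0.10 for Srxn1 to 0.18 for Nfe2l2, with a median of -0.03 against -0.0022 over all genes, and 2 of 8 were positive against 49.5% of all genes. The 95% intervals of the 8 together spanned -0.36 to 0.58, so a doubling or halving (a log2 fold change of 1 either way) lay outside each of them. For constant light averaged over air the fold changes ran from -0.09 for Txnrd1 to 0.49 for Nqo1 with a median of -0.02 against 0.0047, 3 of 8 were positive against 51.3%, and all 8 intervals again stayed within 1. In LL-FA over LD-FA, LL-PM2.5 over LD-PM2.5 and the interaction only 7 of the 8 did, with bounds out to 1.069, 1.051 and -1.01. The intervals are for each gene alone.

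**Figure D2:**
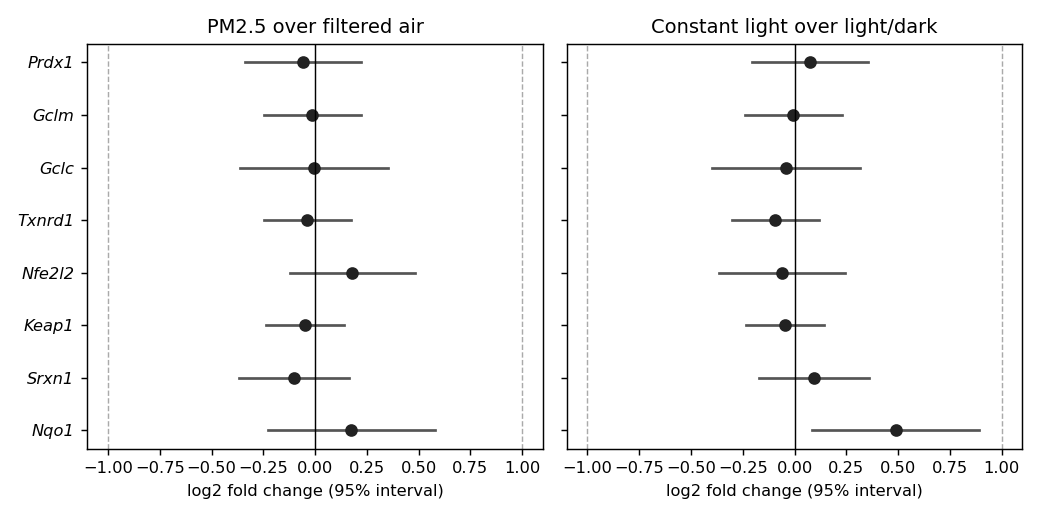
log2 fold change (point) with its 95% interval (line) from edgeR for PM2.5 over filtered air averaged over light, left, and constant light over light/dark averaged over air, right. Dashed lines mark a log2 fold change of -1 and 1, which none of the intervals reaches, and only the Nqo1 interval for constant light, 0.08 to 0.89, leaves out 0.

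Nqo1 showed the widest relative spread over the libraries, with a coefficient of variation of 22.7% against 8.92% for Keap1 and 10.4% to 17.2% for the others tested. It had 6.79 and 5.63 FPKM in LL-PM2.5 and 5.63 and 5.45 in LL-FA, against 3.51 and 5.50 in LD-PM2.5 and 3.78 and 4 in LD-FA. Both constant-light groups lay above LD-FA, and of the light/dark libraries only LD-PM2.5 replicate 2 reached the level of constant light. The reads behind these levels were 181 to 374 fragments per library. On CPM, the scale of the test, Nqo1 was at 12.6 and 11.8 in LL-PM2.5 and 10.5 and 11.3 in LL-FA, against 6.47 and 11.1 in LD-PM2.5 and 7.15 and 8.24 in LD-FA. The log2 fold change for constant light averaged over air was 0.49 ± 0.17 (SE), with an unadjusted p of 0.0242 and an adjusted p of 0.842 by edgeR. It was 0.50 ± 0.25 in filtered air (LL-FA over LD-FA) and 0.48 ± 0.24 under PM2.5 (LL-PM2.5 over LD-PM2.5), and the interaction was -0.02 ± 0.35. These single contrasts did not pass either (edgeR adjusted p of 1 and 0.579). Under PM2.5 the value was 0.15 when LD-PM2.5 replicate 1 was left out and 0.91 when LD-PM2.5 replicate 2 was. For PM2.5 averaged over light the value of Nqo1 was 0.17 ± 0.17 (edgeR adjusted p = 0.742). With the first libraries of LD-FA and LL-FA, which held the most muscle transcripts, both left out, the value for constant light averaged over air was 0.46. LD-FA replicate 2, with 30.8 FPKM of muscle markers, was kept in that fit.

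The transcription factor and its inhibitor showed no called difference. Nfe2l2 had 27.2 and 22.6 FPKM in LL-PM2.5, 25.5 and 15.9 in LL-FA, 26.1 and 22.1 in LD-PM2.5, and 23.6 and 22 in LD-FA. LL-FA replicate 2 was the low library, and the other 7 lay between 22 and 27.2. Its log2 fold change for PM2.5 in constant light was 0.30 ± 0.18 (edgeR adjusted p = 0.989), which became 0.05 when LL-FA replicate 2 was left out and 0.60 when replicate 1 was. In the light/dark cycle it was 0.06 ± 0.18. Keap1 was the steadiest member, with 18.5 and 19.9 FPKM in LL-PM2.5, 18.8 and 21.3 in LL-FA, 18.5 and 23.2 in LD-PM2.5, and 20.6 and 22.5 in LD-FA. By FPKM the groups overlapped in each of the 4 pairwise comparisons. On CPM, Keap1 was at 70.3 and 69.9 in LL-PM2.5, below the 75.7 and 71.4 in LL-FA and the 70.5 and 76.2 in LD-PM2.5 without overlap. The fold changes of Keap1 were -0.05 ± 0.08 for PM2.5 averaged over light and -0.04 ± 0.08 for constant light averaged over air, the narrowest errors of the 8.

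Glutathione supply was read by the 2 subunits of glutamate-cysteine ligase, the rate-limiting enzyme of glutathione synthesis. Gclc (chromosome 9, 77754535 to 77794485, + strand, GRCm38) had 97.9 and 52.8 FPKM in LL-PM2.5, 92.0 and 76.0 in LL-FA, 87.2 and 87.4 in LD-PM2.5, and 74.1 and 79.1 in LD-FA. Gclm (chromosome 3, 122245557 to 122270732, + strand) had 107 and 68.0 FPKM in LL-PM2.5, 94.3 and 85.4 in LL-FA, 93.7 and 93.2 in LD-PM2.5, and 86.3 and 80.3 in LD-FA. For both genes the LL-PM2.5 libraries were the highest and the lowest of the 8, with the other groups between them. The subunits did not move together in LD-FA, where replicate 2 was the higher library for Gclc and the lower for Gclm. By FPKM both LD-PM2.5 libraries lay above both LD-FA libraries for Gclc and Gclm. On CPM the groups overlapped for both, with Gclm at 281 and 285 in LD-PM2.5 against 294 and 281 in LD-FA, and the log2 fold changes of PM2.5 in the light/dark cycle were 0.14 ± 0.22 for Gclc and -0.02 ± 0.14 for Gclm (edgeR adjusted p of 0.792 and 0.955). The direction for Gclm depended on the unit, with 0.16 from limma on log2(FPKM + 1). In constant light the PM2.5 fold change of Gclc was -0.15 ± 0.22, which became -0.52 when LL-PM2.5 replicate 1 was left out and 0.14 when replicate 2 was. That of Gclm was -0.0038 ± 0.14, with -0.19 and 0.16 when the same libraries were left out in turn.

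The thioredoxin branch was represented by Txnrd1, which reduces thioredoxin with NADPH, Prdx1, which thioredoxin recycles, and Srxn1, sulfiredoxin, which rescues over-oxidised peroxiredoxins. Txnrd1 (chromosome 10, 82833951 to 82897712, + strand) had 41.1 and 32.6 FPKM in LL-PM2.5, 45.3 and 40.4 in LL-FA, 45.2 and 45.5 in LD-PM2.5, and 39.1 and 41.9 in LD-FA. Both LL-PM2.5 libraries lay below both LD-PM2.5 libraries, and both LD-PM2.5 libraries above both LD-FA libraries. The log2 fold changes were -0.27 ± 0.13 for constant light under PM2.5, -0.21 ± 0.13 for PM2.5 in constant light, and 0.14 ± 0.13 in LD-PM2.5 over LD-FA (edgeR adjusted p of 0.562, 0.989 and 0.664). The difference between the 2 effects of PM2.5, the interaction, was -0.35 ± 0.18 and did not pass (unadjusted p of 0.0868, edgeR adjusted p = 0.843), and was -0.22 when the first libraries of LD-FA and LL-FA were left out. Prdx1 had 756 and 661 FPKM in LL-PM2.5, 712 and 676 in LL-FA, 713 and 601 in LD-PM2.5, and 800 and 571 in LD-FA. By FPKM the LD-FA libraries enclosed all the others. Its fold changes were -0.06 ± 0.12 for PM2.5 averaged over light and 0.07 ± 0.12 for constant light averaged over air. Srxn1 lay between 14.4 and 19.1 FPKM in all 8 libraries, with fold changes of -0.10 ± 0.11 and 0.09 ± 0.11 in the same 2 comparisons.

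Counted over the 8 members by FPKM, groups did not overlap for 3 higher and 0 lower in LD-PM2.5 over LD-FA (24.6% and 18.7% of all genes), 0 and 0 in LL-PM2.5 over LL-FA (9.65% and 11.6%), 1 and 0 in LL-FA over LD-FA (10.7% and 11.3%), and 1 and 1 in LL-PM2.5 over LD-PM2.5 (12.3% and 18.3%). In the averages, where all 4 libraries had to lie on one side, 0 members did not overlap. The shares of all genes, higher and lower, were 1.59% and 1.81% for PM2.5 and 0.68% and 1.56% for constant light. With 8 genes these FPKM counts are near the background. They depend on the unit, and the shares of all genes were not counted on CPM. In LL-PM2.5 over LL-FA, Nfe2l2 (89.2 and 84.8 against 84 and 56.9 CPM) and Nqo1 were higher without overlap on CPM. Txnrd1 (172 and 151 against 195 and 180 CPM) and Keap1 were lower without overlap there. In LD-PM2.5 over LD-FA, Gclc (381 and 419 against 334 and 391 CPM) and Gclm overlapped on CPM, and Txnrd1 did not.

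**Figure D3:**
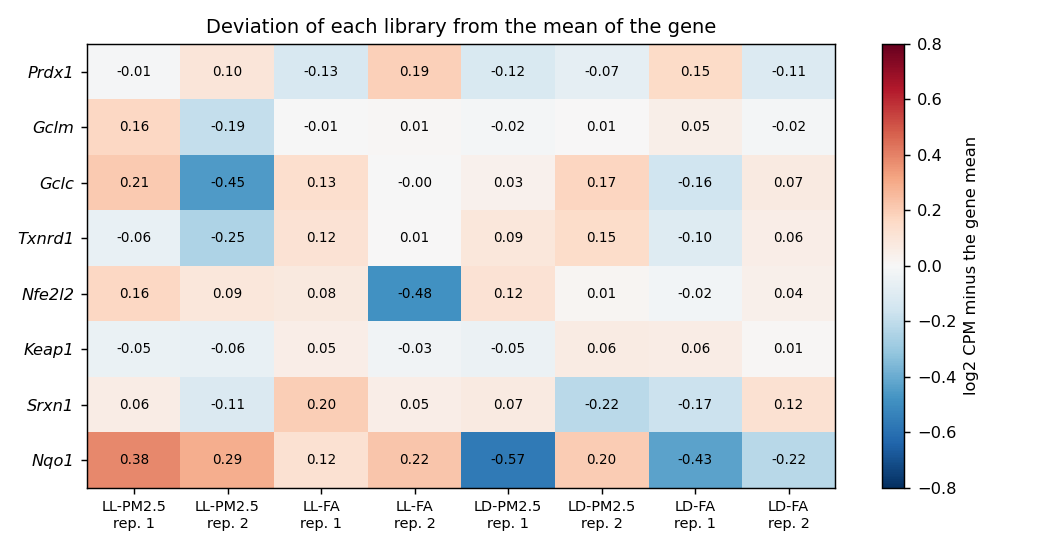
log2 CPM of each member in each library minus the mean of the gene over the 8 libraries (red above, blue below). Nqo1 is above its mean in all 4 constant-light libraries and in LD-PM2.5 replicate 2, and LL-PM2.5 replicate 2 is below the mean for Gclc at -0.45, Txnrd1 at -0.25 and Gclm at -0.19.

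LL-PM2.5 replicate 2 was the lowest of the 8 on CPM for 4 of the 8 members (Gclc, Gclm, Txnrd1 and Keap1) and LL-PM2.5 replicate 1 the highest for 4. Over all tested genes the same 2 libraries were the lowest in 17.3% and the highest in 9.91%. LL-PM2.5 replicate 2 also held 282 FPKM of pancreas markers, and their part in these low values was not tested. LD-FA replicate 1, with 2780 FPKM of the same markers, was the lowest library for 0 of the 8 members. On CPM only LL-PM2.5 replicate 2 was lower than LD-FA replicate 1 for Gclc (272 against 334) and Txnrd1 (151 against 167). For Gclm and Keap1 LD-FA replicate 1 stood at 294 and 76, against 249 and 69.9 in LL-PM2.5 replicate 2. By the root mean square difference of standardised log2 CPM profiles over the 8 libraries, Gclc and Txnrd1 were each other's nearest member at 0.558, and Gclm was nearest to Gclc at 0.654. Nqo1 had no close member, with Prdx1 the nearest at 1.18, and its closest tested genes outside the list were Zc3h8 at 0.205, Atrip at 0.297, Hyi at 0.298, Gsta1 at 0.303 and Atg3 at 0.318. With 8 libraries and 11316 genes such closeness is a description.

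A wider set of 72 genes, in 9 lists of NRF2 regulators, further targets and other antioxidant enzymes, was read in the same fits. Of the 68 tested, 0 were called by edgeR in any of the 7 comparisons. For PM2.5 averaged over light, 6 were higher and 3 lower at an unadjusted p of 0.05, where 5.54% and 4.5% of all genes were, and their median log2 fold change was -0.05. For constant light averaged over air, 4 were higher and 2 lower, where 2.18% and 3.48% of all genes were, with a median of 0.05.

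**Figure D4:**
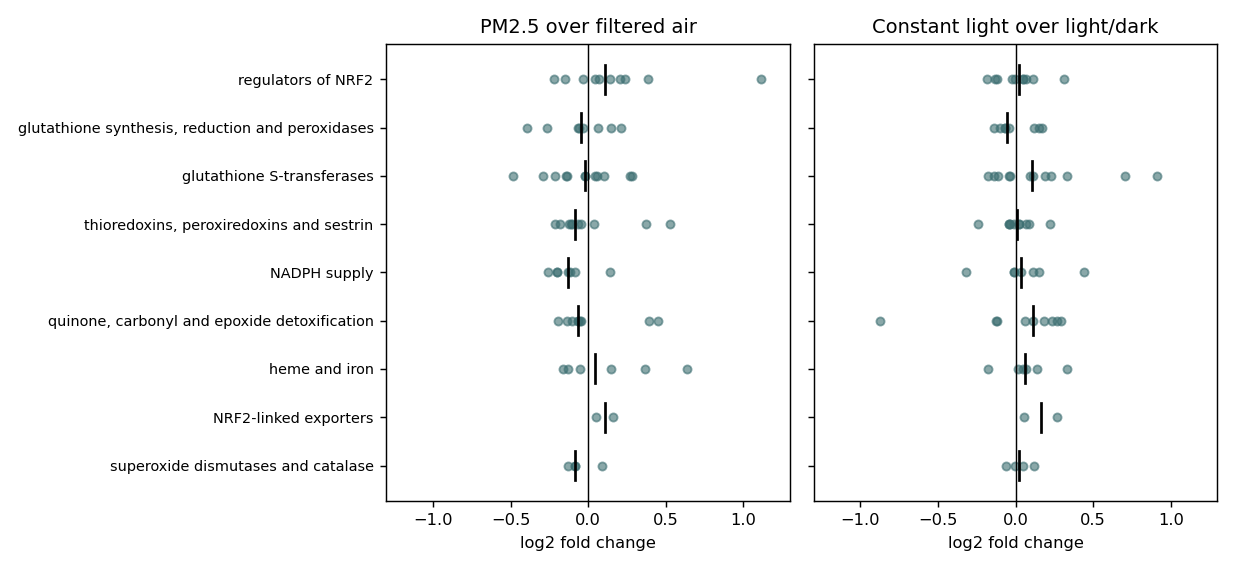
log2 fold change of each tested gene (points) in 9 lists around the NRF2 response, with the median of each list (bar), for PM2.5 over filtered air averaged over light, left, and constant light over light/dark averaged over air, right. Medians lie near 0, and single genes such as Maff at 1.12 and Osgin1 at -0.87 lie away from their lists.

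Among the glutathione S-transferases, which join glutathione to electrophiles, 2 of the alpha class had the largest values for constant light. Gsta1, chosen after its values were seen, had 4.51 and 5.74 CPM in LL-PM2.5, 3.3 and 4.08 in LL-FA, 1.5 and 3.33 in LD-PM2.5, and 1.66 and 2.8 in LD-FA. Gsta2, of smallest p in its list, had 96.6 and 92.9 CPM in LL-PM2.5, 59.8 and 63.9 in LL-FA, 34.5 and 57.2 in LD-PM2.5, and 33.7 and 62.4 in LD-FA. For both genes the LL-PM2.5 libraries were above all light/dark libraries. By FPKM, 12.3% of all genes were higher without overlap in LL-PM2.5 over LD-PM2.5, and the share above all light/dark libraries was not counted. For Gsta1, LL-FA replicate 1 (3.3) lay just below LD-PM2.5 replicate 2 (3.33). For Gsta2, LL-FA replicate 1 lay within the LD-FA range and replicate 2 just above it. Constant light averaged over air gave 0.91 ± 0.29 for Gsta1 and 0.71 ± 0.22 for Gsta2 (unadjusted p of 0.0165 and 0.0147, edgeR adjusted p of 0.80 and 0.778). Gsta1 and Gsta2 are close relatives in sequence. The notes used here do not say how reads were shared between them, so their values are uncertain. Gsta3 and Gsta4, of the same class, stood at 0.09 and 0.19 (edgeR adjusted p of 0.968 and 0.946). Over the list of 12 transferases, 7 were positive and the median was 0.10.

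**Figure D5:**
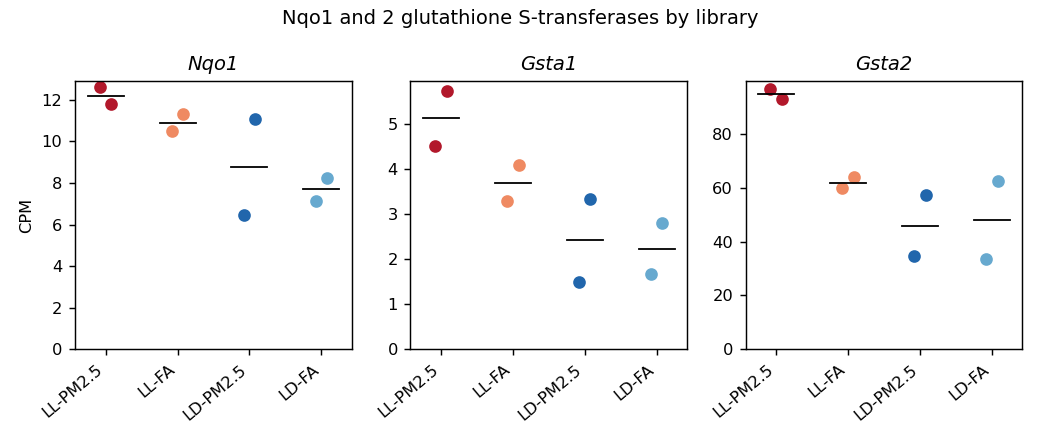
CPM of Nqo1, Gsta1 and Gsta2 in each library (points) with group means (bars), axes from 0. The 4 constant-light libraries are at 10.5 to 12.6 CPM for Nqo1, which LD-PM2.5 replicate 2 reaches with 11.1 among the light/dark libraries.

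Among the partners and controllers of NRF2, Maff, a small MAF protein that can pair with NRF2, had 3.84 and 6.59 CPM in LL-PM2.5 against 2.46 and 3.95 in LL-FA, and 4.61 and 8.84 in LD-PM2.5 against 3.01 and 1.65 in LD-FA. PM2.5 groups were higher on average in both light regimes, with an overlap in constant light. The log2 fold change averaged over light was 1.12 ± 0.33 (edgeR adjusted p = 0.413), which DESeq2 called (adjusted p = 0.0435). Mafg, its relative, had the smallest p of its list for constant light at 0.31 ± 0.15 (edgeR adjusted p = 0.861). Of the 10 regulators 7 were positive for PM2.5 averaged over light, with a median of 0.11.

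In the thioredoxin list, Sesn2, a stress-induced sestrin that restrains growth signalling, had 8.99 and 7.6 CPM in LL-PM2.5 against 6.6 and 4.81 in LL-FA, and 9.44 and 10.1 in LD-PM2.5 against 6.8 and 6.84 in LD-FA. Both PM2.5 libraries lay above both filtered-air libraries in either light regime, and the log2 fold change averaged over light was 0.53 ± 0.14 (unadjusted p of 0.00591, edgeR adjusted p = 0.396). Sesn2 was named for the smallest p of its list, so some separation comes with the choice. By FPKM, 24.6% of all genes were higher without overlap in LD-PM2.5 over LD-FA and 9.65% in LL-PM2.5 over LL-FA. For Sesn2 every PM2.5 library also lay above every filtered-air library, by FPKM and by CPM. By FPKM this held for 1.59% of all genes. Txnip, which binds and inhibits thioredoxin and was chosen after its values were seen, had 108 and 118 CPM in LL-PM2.5 against 86.7 and 71.9 in LL-FA, and 94.7 and 108 in LD-PM2.5 against 87 and 84.2 in LD-FA. It likewise did not overlap within either light regime or across both, and gave 0.37 ± 0.10 (edgeR adjusted p = 0.396). The mitochondrial reductase Txnrd2, named for constant light, stood at 0.22 ± 0.11 (edgeR adjusted p = 0.861).

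Osgin1, an oxidative stress-induced inhibitor of cell growth, had a fold change of opposite sign to that of Nqo1. It had 161 and 308 CPM in LL-PM2.5 and 200 and 134 in LL-FA, against 344 and 488 in LD-PM2.5 and 350 and 279 in LD-FA. Both constant-light groups lay below the light/dark group in the same air. By FPKM, 11.3% of all genes were lower without overlap in LL-FA over LD-FA and 18.3% in LL-PM2.5 over LD-PM2.5. The log2 fold change for constant light averaged over air was -0.87 ± 0.24 (unadjusted p of 0.00793, edgeR adjusted p = 0.651), and DESeq2 called it (adjusted p = 0.00932). In the same list of quinone, carbonyl and epoxide detoxification, Cbr1, a carbonyl reductase, was at 0.39 ± 0.16 for PM2.5 averaged over light (edgeR adjusted p = 0.483). Hmox1 of the heme and iron list, heme oxygenase 1 and a widely used stress marker, was chosen after its values were seen. It had 22.2 and 51.9 CPM in LL-PM2.5 against 20.1 and 24.1 in LL-FA, and 29.9 and 47.7 in LD-PM2.5 against 25.8 and 27.9 in LD-FA. The PM2.5 libraries of each light regime differed more from each other than the lower one did from filtered air, and the fold change of 0.64 ± 0.27 averaged over light did not pass (unadjusted p of 0.0491, edgeR adjusted p = 0.495).

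Of 7 genes of NADPH supply, 1 had a positive log2 fold change for PM2.5 averaged over light, with a median of -0.13, and 4 had one for constant light averaged over air, with a median of 0.03. H6pd, which makes NADPH in the endoplasmic reticulum, had 517 and 381 CPM in LL-PM2.5 against 512 and 544 in LL-FA, and 754 and 700 in LD-PM2.5 against 497 and 522 in LD-FA. It was highest in LD-PM2.5. Constant light averaged over air gave -0.32 ± 0.12 (edgeR adjusted p = 0.842), which joins unlike values: 0.05 ± 0.17 in filtered air and -0.70 ± 0.17 under PM2.5 (unadjusted p of 0.766 and 0.00358). The interaction was -0.75 ± 0.23 and did not pass (unadjusted p of 0.0141, edgeR adjusted p = 0.843). Taldo1, transaldolase of the pentose phosphate pathway, had 136 and 133 CPM in LL-PM2.5 against 158 and 173 in LL-FA, and 143 and 135 in LD-PM2.5 against 168 and 154 in LD-FA. It lay lower in PM2.5 than in filtered air without overlap in both light regimes, at -0.26 ± 0.08 averaged over light (unadjusted p of 0.0159, edgeR adjusted p = 0.43). Taldo1 was named for the smallest p of its list, so some separation comes with the choice. By FPKM, 18.7% of all genes were lower without overlap in LD-PM2.5 over LD-FA and 11.6% in LL-PM2.5 over LL-FA. For Taldo1 every PM2.5 library also lay below every filtered-air library, by FPKM and by CPM. By FPKM this held for 1.81% of all genes. The remaining genes named by rule did not pass for PM2.5 averaged over light, with Ggct at -0.39, Gstm4 at -0.48, the iron exporter Slc40a1 at 0.37, the bile canalicular exporter Abcc2 at 0.16 and catalase (Cat) at -0.13. They did not pass for constant light averaged over air either, with the lipid peroxidase Gpx4 at 0.17, Slc40a1 at 0.33, Abcc3 at 0.27 and extracellular superoxide dismutase Sod3 at 0.12.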

How the data were processed

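RNA was measured by RNA-seq in 8 liver libraries, 2 per group. The series also mentions ATAC-seq, not analysed here. STAR, Cufflinks, Cuffdiff and mm10 are named, without versions, per the submitters' processing notes. Per the file headers, the deposited table gives each gene an estimated count of fragments in each library and FPKM scaled by the authors between libraries; 97.4% of the nonzero estimates came within 0.01 of an integer, and all were rounded. Of 48432 genes, 47 with a status other than OK in a library were left out. IDs were matched to GENCODE vM21 symbols without their version (48051 matched), and entries of 1 symbol were added. The 11316 genes that reached 1 FPKM in 2 libraries or more entered edgeR 4.0.16 (R 4.3.3, TMM, quasi-likelihood, a group-means model on 4 residual degrees of freedom, two-sided). P-values were adjusted by Benjamini-Hochberg over all 11316 genes. In "A over B" a positive log2 fold change means higher in A, and its SE was taken from the F statistic. Limma 3.58.1 and DESeq2 1.42.0 were alternatives, beside other scaling, filters, a replicate block and leaving libraries out. The fit was also run on simulated data, where a limit was set only on the median error of the fold changes. The share of changed genes that the test finds is not given here. CPM uses TMM-scaled library sizes, and depths of 22085740 to 31696337 fragments set the precision.

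The members and lists were chosen with earlier results of these data known. Another gene of the chosen set is not reported here. Named were the members, any called gene of the lists, per list the gene of smallest p for PM2.5 averaged over light and for constant light averaged over air, and the 5 genes nearest to Nqo1; Hmox1, Gsta1 and Txnip were added after their values were seen.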

Additional observations from a re-analysis of the deposited data

How the results depend on the processing

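The main result, 0 of 8 members called in each of the 7 comparisons, held under all 15 alternatives. The counts over all genes, the calls of some other named genes and the signs of fold changes near 0 depended on the processing, and the cause was not tested. With no filter (23030 genes) edgeR called 647 genes for LD-PM2.5 over LD-FA, 476 for LL-PM2.5 over LL-FA, 201 for LL-FA over LD-FA, 358 for LL-PM2.5 over LD-PM2.5, 696 for PM2.5 averaged over light, 291 for LL over LD averaged over air and 239 for the interaction, against 2 for PM2.5 averaged over light and 0 elsewhere by edgeR with the filter. DESeq2 called 151 genes for LD-PM2.5 over LD-FA, 58 for LL-PM2.5 over LL-FA, 43 for LL-FA over LD-FA, 141 for LL-PM2.5 over LD-PM2.5, 161 for PM2.5 averaged over light, 92 for LL over LD averaged over air and 33 for the interaction, against 2 for PM2.5 averaged over light and 0 elsewhere by edgeR with the filter. Limma called 1 gene for LL-PM2.5 over LL-FA, 1 for LL-PM2.5 over LD-PM2.5, 1 for LL over LD averaged over air and 2 for the interaction, against 0 in each by edgeR. A minimum of 5 FPKM gave 0 for PM2.5 averaged over light. Leaving out 1 library gave 0 to 17 genes there, with 17 without LD-PM2.5 replicate 1, 10 without LL-PM2.5 replicate 1, 1 without LL-PM2.5 replicate 2 and 0 without any one of the others. It gave 0 to 36 genes for LD-PM2.5 over LD-FA (36 without LD-PM2.5 replicate 1), 0 to 10 for LL-PM2.5 over LL-FA (10 without LL-PM2.5 replicate 1, 1 without replicate 2), 0 to 4 for LL-PM2.5 over LD-PM2.5 (4 without LL-PM2.5 replicate 1, 1 without LD-PM2.5 replicate 1) and 0 to 1 for LL over LD averaged over air (1 without either LL-PM2.5 library). With the first libraries of LD-FA and LL-FA both left out there were 1 for LD-PM2.5 over LD-FA and 0 for PM2.5 averaged over light. The replicate block left the counts at 2 for PM2.5 averaged over light and 0 in the other comparisons. Deviations of same-numbered libraries correlated at -0.585 to 0.334 between groups, so the numbers are not taken as pairs. Of the genes named outside the members, 6 were called under an alternative. With no filter these were Maff (adjusted p = 0.00028), Gstm4 (0.046) and Hmox1 (0.00619) for PM2.5 and Gsta2 (0.00186), Osgin1 (1.71e-05) and Gsta1 (0.0235) for constant light. Over its alternatives Nqo1 for constant light averaged over air was 0.33 to 0.71, with adjusted p of 0.209 to 1. At a minimum of 5 FPKM the log2 fold change changed sign for Keap1 (0.0059 for LD-PM2.5 over LD-FA), Gclm (0.012 for LD-PM2.5 over LD-FA, 0.00068 for LL-FA over LD-FA, -0.012 for LL-PM2.5 over LD-PM2.5, 0.0056 for PM2.5 averaged over light, -0.013 for the interaction) and Gclc (0.012 for PM2.5 averaged over light). With limma on FPKM it did so for Gclm (0.16 for LD-PM2.5 over LD-FA, 0.11 for LL-FA over LD-FA, -0.13 for LL-PM2.5 over LD-PM2.5, 0.048 for PM2.5 averaged over light, -0.23 for the interaction). With no filter it did so for Gclm (0.0023 for LL-PM2.5 over LL-FA) and Prdx1 (-0.0042 for LL-FA over LD-FA). With the replicate block it did so for Gclm (-0.0025 for LL-PM2.5 over LD-PM2.5) and Nqo1 (0.0096 for the interaction). Leaving out each library in turn, or the first libraries of LD-FA and LL-FA together, gave these ranges where the sign changed. For PM2.5 averaged over light Abcc2 -0.026 to 0.31, Gclc -0.19 to 0.14, Gclm -0.11 to 0.070, Nqo1 -0.037 to 0.34, Prdx1 -0.14 to 0.026 and Txnrd1 -0.087 to 0.0085. For LL over LD averaged over air Gclc -0.23 to 0.11, Gclm -0.099 to 0.086, Nfe2l2 -0.23 to 0.074, Sod3 -0.038 to 0.28 and Srxn1 -0.013 to 0.18. For LL-FA over LD-FA Gclc -0.074 to 0.23, Gclm -0.046 to 0.026, Keap1 -0.057 to 0.030, Nfe2l2 -0.52 to 0.080, Prdx1 -0.14 to 0.30, Srxn1 -0.070 to 0.30 and Txnrd1 -0.049 to 0.17. For LL-PM2.5 over LD-PM2.5 Gclc -0.56 to 0.11, Gclm -0.18 to 0.18 and Srxn1 -0.094 to 0.21. For LL-PM2.5 over LL-FA Gclc -0.52 to 0.14, Gclm -0.19 to 0.16 and Prdx1 -0.15 to 0.17. For LD-PM2.5 over LD-FA Gclm -0.054 to 0.011, Keap1 -0.073 to 0.017, Nfe2l2 -0.0057 to 0.12, Nqo1 -0.24 to 0.51, Prdx1 -0.25 to 0.014 and Srxn1 -0.21 to 0.11. For the interaction Gclm -0.17 to 0.18, Keap1 -0.094 to 0.0013, Nfe2l2 -0.013 to 0.58, Nqo1 -0.35 to 0.40, Prdx1 -0.16 to 0.29 and Srxn1 -0.26 to 0.11. The largest main value among the results that changed sign was 0.25 in size (0.2457), and none was called.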

Other observations

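FPKM and fragments did not move in step for every member. The log2 ratio of FPKM to CPM, relative to the median gene of each library, spanned 0.388 over the 8 libraries for Keap1, 0.313 for Prdx1 and 0.213 for Gclm, and 0.0388 to 0.0913 for the other 5 tested members, against a median span of 0.214 over all tested genes. For Gclm in the light/dark cycle the LD-PM2.5 and LD-FA libraries were apart by FPKM and overlapped by CPM. The same held for Gclc, although its span was small, as the span leaves out shifts that most genes of a library share. Nfe2l2, Nqo1 and Txnrd1 overlapped by FPKM between LL-PM2.5 and LL-FA and were apart by CPM. Differences of the size seen here therefore depend on the unit for members beyond Keap1, Prdx1 and Gclm as well.

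The genes whose profile was nearest to that of Nqo1 were Zc3h8, a zinc finger protein gene, and Atrip, the partner of the ATR checkpoint kinase. Zc3h8 had 1.6 and 1.03 FPKM in LL-PM2.5 and 1.29 and 1.16 in LL-FA, against 0.594 and 1.17 in LD-PM2.5 and 0.748 and 0.638 in LD-FA. Atrip had 1.45 and 1.45 FPKM in LL-PM2.5 and 1.5 and 1.44 in LL-FA, against 0.964 and 1.58 in LD-PM2.5 and 1.07 and 1.16 in LD-FA. In both, as in Nqo1, LD-PM2.5 replicate 2 was at or above the lower level seen in constant light and LD-PM2.5 replicate 1 was not. Both genes were picked for nearness to the profile of Nqo1, so this shared pattern follows from the choice.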
